A study of Homo sapiens with 9 samples.

Results

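The 37 genes of the human mitochondrial genome were taken from the 60715 genes of the count table as all those whose symbol begins with MT-. They comprise 13 protein genes, 2 rRNA genes and 22 tRNA genes. Their levels were followed in MDA-MB-231, an established breast cancer line of the triple negative type. All cells had been transduced with lentivirus made in HEK293T cells and sorted by fluorescence. The control cells received RFP, a red fluorescent protein. A second line received KCNJ2(Kir2.1)-Y242F-EGFP, a substituted form of the inward rectifier potassium channel Kir2.1 joined to EGFP, and the other line received Kv1.5-T2A-his-EGFP, which carries a voltage-gated potassium channel. Every group therefore shares the transduction and the sort, and no untransduced cells were compared. Which promoter drove the constructs, and whether a line was made once or several times, was not given in the sources used here. P-values below therefore measure the spread between cultures of each line.

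Poly(A) RNA was sequenced from 3 RFP libraries, 3 Kir2.1 libraries and 2 Kv1.5 libraries. The latter are replicates 2 and 3, and replicate 1 of that line was not analysed here. Total counts ran from 30970235 to 42753422 per library. Levels are given as counts per 1000000 of the scaled library total (CPM). KCNJ2 reached 842, 1384 and 1188 CPM in Kir2.1 replicates 1 to 3 and no more than 0.105 CPM in any other library. KCNA5, the gene of Kv1.5, had 0 counts in either library of the Kv1.5 line, so its own transcript does not check that label, and these are called the Kv1.5-labelled libraries. The reason was not tested. Of the markers of the line, VIM ran from 1747 to 4003 CPM and CD44 from 599 to 1093 CPM, while EPCAM ran from 7.78 to 27.2 CPM and ERBB2 from 48.3 to 76.8 CPM. ESR1 and PGR were at or under 0.077 CPM and the leukocyte gene PTPRC at or under 0.167 CPM. SOX2, looked at for carried-over packaging cells, was between 0.42 and 2.62 CPM, and LIN28B had 0 counts in every library.

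Mitochondrial DNA is transcribed along nearly its whole length from both strands, and the long precursors are cut at the tRNAs that lie between most of the other genes. The 2 rRNAs form the core of the mitochondrial ribosome, and the 13 proteins are subunits of respiratory complexes I, III, IV and V that are built together with many nuclear-encoded subunits. Most mitochondrial mRNAs carry a short poly(A) tail, which completes the stop codon of several of them, whereas the rRNAs carry only a few added adenines and the tRNAs end in an added CCA. A library made from poly(A) RNA therefore reads the 3 classes with unequal efficiency, and the amount of an RNA in the cell and the part of it that passes the selection cannot be told apart here. In bulk RNA, fewer cells that make a transcript and less of it per cell cannot be told apart either.

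All 37 genes were found in GENCODE 29 on chromosome M of GRCh38. On the plus strand of the reference lie 12 protein genes, both rRNA genes and 14 tRNA genes, and on the minus strand lie MT-ND6 and 8 tRNA genes. The junctions at which the results turn are shown first, in GENCODE 29 sequence of the plus strand, 5′ to 3′. Each line gives the last 30 bases of a longer gene in lower case and the whole of the tRNA that follows it in capitals, with no base between them. They span chrM:15858-15953, chrM:1572-1670 and chrM:3200-3304.
MT-CYB end and MT-TT: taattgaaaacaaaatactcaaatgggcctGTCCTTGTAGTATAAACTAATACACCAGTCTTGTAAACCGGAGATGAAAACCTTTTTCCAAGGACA
MT-RNR1 end and MT-TV: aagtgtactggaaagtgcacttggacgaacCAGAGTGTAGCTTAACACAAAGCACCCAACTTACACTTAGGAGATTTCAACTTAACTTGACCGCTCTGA
MT-RNR2 end and MT-TL1: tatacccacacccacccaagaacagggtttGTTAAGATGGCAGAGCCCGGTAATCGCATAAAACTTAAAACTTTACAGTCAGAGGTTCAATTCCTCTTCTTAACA
MT-TT is 66 bases long, so only 17 of the possible 50-base reads lie wholly inside it, and the handling of a read that crosses into MT-CYB was not given in the sources used here.

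Both rRNA genes were higher in the Kv1.5-labelled libraries than in RFP, and MT-RNR2 was higher in Kir2.1 as well. MT-RNR2, the 16S rRNA of the large ribosomal subunit (ENSG00000210082.2, chrM:1671-3229, plus strand, 1559 bases), stood at 2307, 2037 and 2590 CPM in RFP replicates 1 to 3. In the Kir2.1 libraries it stood at 4579, 4806 and 3881 CPM, and in the Kv1.5-labelled libraries at 7730 and 10257 CPM. The 3 groups did not overlap: every Kir2.1 library lay above every RFP library, and both Kv1.5-labelled libraries lay above every other. MT-RNR2 rose 1.91-fold in Kir2.1 against RFP (log2 fold change 0.94, SE 0.20, adjusted p = 0.00653 by edgeR's quasi-likelihood test over 16687 genes). It rose 3.89-fold in Kv1.5 against RFP (1.96, SE 0.22, edgeR adjusted p = 6.35e-05). Between the channel lines it was 2.03-fold higher in Kv1.5 (1.02, SE 0.22, edgeR adjusted p = 0.0097). The last of these calls was lost without Kir2.1 replicate 3 (log2 fold change 0.93, edgeR adjusted p = 0.0503) and without Kv1.5 replicate 3 (0.80, edgeR adjusted p = 0.0673).

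MT-RNR1, the 12S rRNA of the small subunit (ENSG00000211459.2, chrM:648-1601, plus strand, 954 bases), followed the same order of group means. It stood at 386, 199 and 186 CPM in the RFP libraries, at 599, 443 and 341 CPM in Kir2.1, and at 655 and 1077 CPM in the Kv1.5-labelled libraries. RFP replicate 1 lay above Kir2.1 replicate 3, so those groups overlapped, whereas the Kv1.5-labelled libraries lay above all others. MT-RNR1 rose 3.37-fold in Kv1.5 against RFP (log2 fold change 1.75, SE 0.34, edgeR adjusted p = 0.0022). In Kir2.1 against RFP its log2 fold change was 0.84 (SE 0.31, 95% interval 0.17 to 1.52) and did not pass the test (edgeR adjusted p = 0.0738). It passed without RFP replicate 1 (1.26, edgeR adjusted p = 0.0108). With any other RFP or Kir2.1 library left out it did not pass, at 0.61 (without Kir2.1 replicate 1) to 1.02 (without Kir2.1 replicate 3). Between Kv1.5 and Kir2.1 the log2 fold change was 0.91 (SE 0.34, edgeR adjusted p = 0.087), and it passed without RFP replicate 1 (0.91, edgeR adjusted p = 0.0377). With a library left out it ran from 0.50 to 1.22, the highest without Kv1.5 replicate 2. The authors' deposited table for Kv1.5 against RFP lists both rRNA genes, with log2 fold changes of 1.96 for MT-RNR2 and 1.75 for MT-RNR1, among 2178 genes, and no other mitochondrial gene. The authors' deposited table for Kir2.1 against RFP lists 0 mitochondrial genes among 1139.

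**Figure D1:**
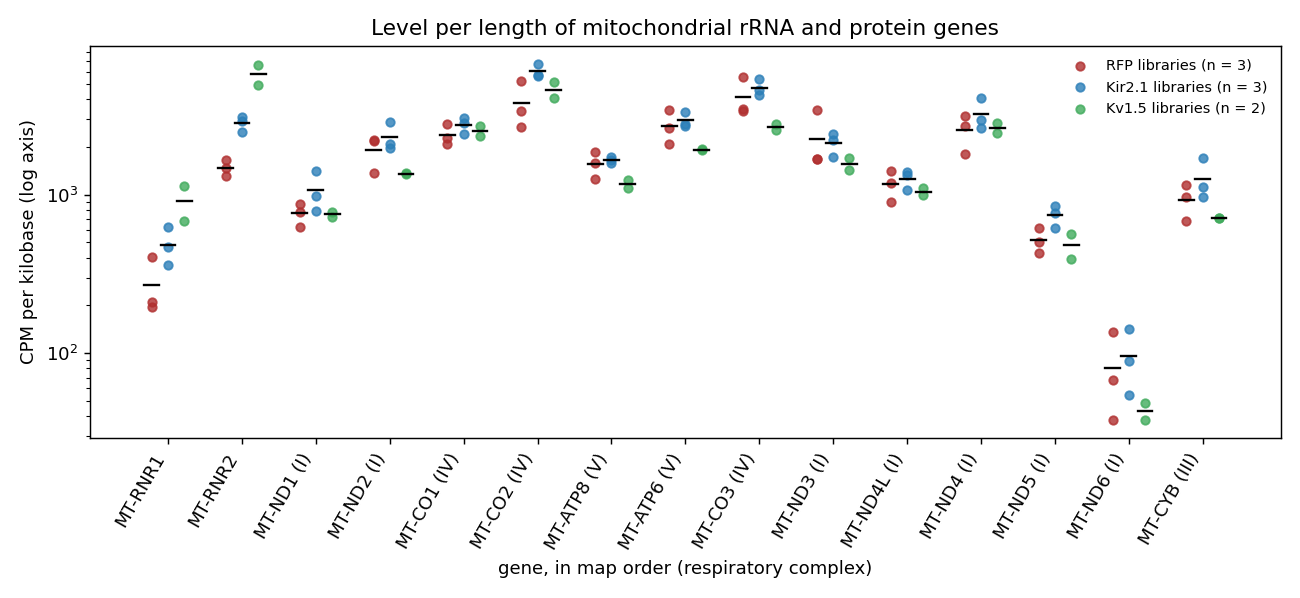
CPM per kilobase of gene (log axis) of the 2 rRNA and 13 protein genes in map order, one point per library and a black line at each group mean (RFP n = 3, Kir2.1 n = 3, Kv1.5 n = 2). MT-RNR2 separates the groups, with means of 1482 (RFP), 2837 (Kir2.1) and 5769 (Kv1.5), while MT-ND6 is the lowest of these genes in each group.

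The share of all counts that fell on the 37 genes did not separate RFP from either channel line. It was 2.25%, 1.95% and 3.01% in the RFP libraries, 3.58%, 3.07% and 2.82% in the Kir2.1 libraries, and 2.82% and 2.75% in the Kv1.5-labelled libraries. Values of Kir2.1 and RFP overlapped, and those of Kv1.5 lay inside the RFP range. The 13 protein genes held 2.14% ± 0.521 (SD, n = 3) of counts in RFP, 2.66% ± 0.354 (SD, n = 3) in Kir2.1 and 1.84% ± 0.213 (SD, n = 2) in Kv1.5. The 2 rRNA genes held 0.260% ± 0.0306 (SD, n = 3), 0.495% ± 0.055 (SD, n = 3) and 0.946% ± 0.164 (SD, n = 2), with no overlap between groups.

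Set against the protein genes of the same library, the rRNA genes gave 13.3, 13.2 and 10.6 counts per 100 protein gene counts in the RFP libraries. The ratio was 16.9, 21.1 and 18.1 in the Kir2.1 libraries and 41.7 and 62.9 in the Kv1.5-labelled libraries. Because both terms come from the same library, this ratio does not depend on how the libraries were scaled. The 3 groups did not overlap, and the group means were 1.51-fold (Kir2.1) and 4.23-fold (Kv1.5) that of RFP. The two-sided exact permutation test gave p = 0.1 for Kir2.1 against RFP and p = 0.2 for each comparison with Kv1.5, which are the smallest values that 3 against 3 and 2 against 3 libraries allow. These and the other composition measures made 33 tests, of which the smallest adjusted p was 0.55 by the exact permutation test. MT-RNR1 counts per 100 MT-RNR2 counts overlapped between all groups, at 7.20 to 16.7 in RFP, 8.80 to 13.1 in Kir2.1 and 8.48 to 10.5 in Kv1.5.

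**Figure D2:**
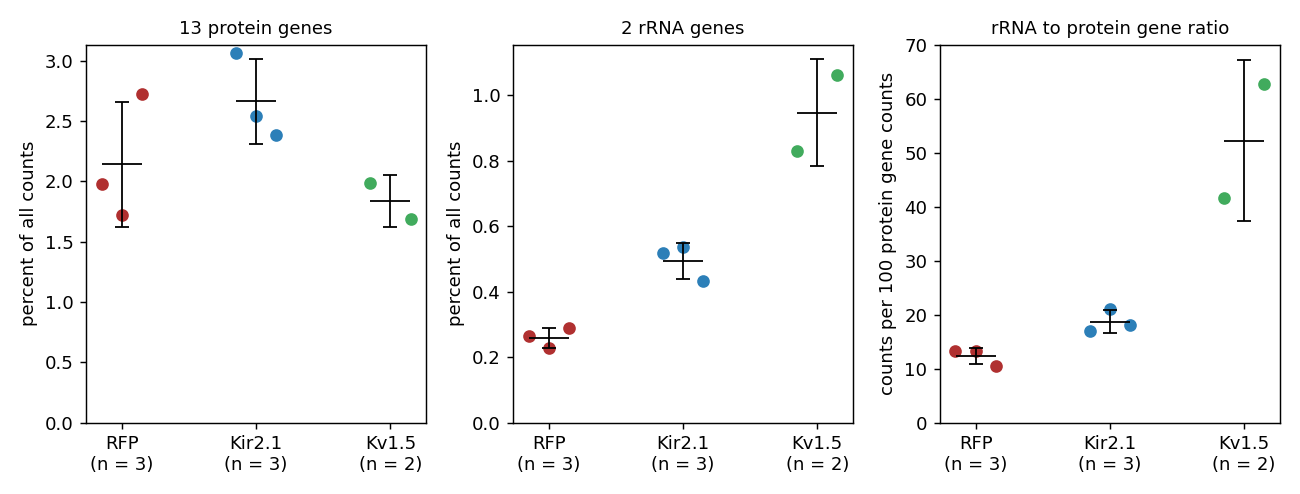
Percent of all counts on the 13 protein genes, percent on the 2 rRNA genes, and rRNA counts per 100 protein gene counts, one point per library with group mean and SD (RFP n = 3, Kir2.1 n = 3, Kv1.5 n = 2). The protein gene share of RFP overlaps both other groups, while the ratio separates them: 10.6 to 13.3 in RFP, 16.9 to 21.1 in Kir2.1, and 41.7 and 62.9 in Kv1.5.

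Calls over all mitochondrial genes were few. Of the 37 genes, 24 passed the filter on low counts (the 13 protein genes, both rRNA genes and 9 tRNA genes), and a gene was called changed at an adjusted p under 0.05. In Kir2.1 against RFP, 2 of the 24 were called, both higher, where 20.5% of all tested genes were called (12.2% higher and 8.26% lower). In Kv1.5 against RFP, 3 were called, all higher, where 33.7% of all tested genes were called (18.1% higher and 15.6% lower). In Kv1.5 against Kir2.1, 1 was higher and 1 lower, where 16.8% of all tested genes were called (8.79% higher and 7.99% lower). In this fit the share of mitochondrial genes called was thus below that of all genes in each comparison, and the calls were MT-RNR2, MT-RNR1, MT-TT and MT-CO3. Between the channel lines that order did not hold with DESeq2, with library totals alone or with no filter on low counts. The comparisons against RFP share their control libraries. The median log2 fold change over all tested genes was -0.01, 0.02 and 0.01 in the same order of comparisons.

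**Figure D3:**
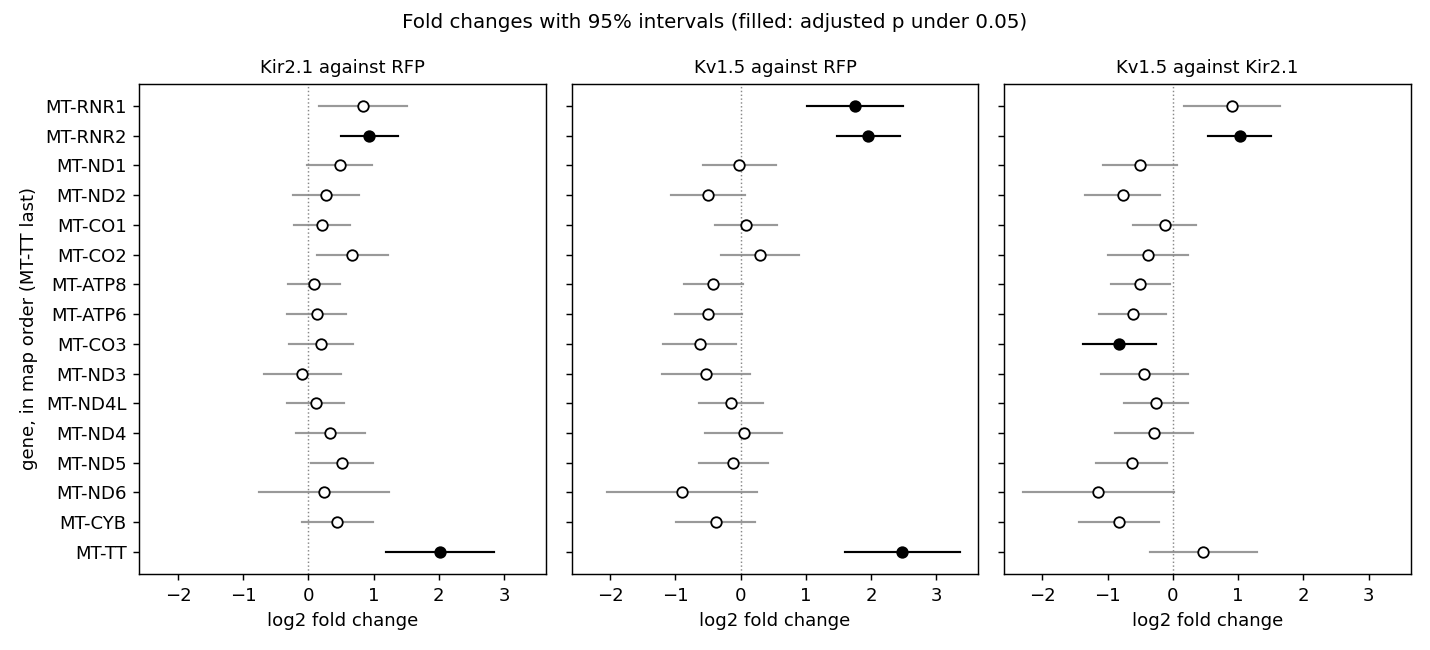
Log2 fold changes of the 2 rRNA genes, the 13 protein genes and MT-TT in the 3 comparisons, with 95% intervals from the edgeR fit, filled where the adjusted p was under 0.05. The rRNA genes and MT-TT lie above 0 against RFP, and the 13 protein genes of Kv1.5 against Kir2.1 all lie below 0 with only MT-CO3 filled.

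None of the 13 protein genes passed the test in either comparison against RFP. In Kir2.1 against RFP their median log2 fold change was 0.25, with 12 above 0, and 2 had an unadjusted edgeR p under 0.05. In Kv1.5 against RFP the median was -0.38, with 10 below 0, and 1 had an unadjusted edgeR p under 0.05. Between Kv1.5 and Kir2.1 the median was -0.50 and all 13 were below 0, with MT-CO3 called lower. Over all 16687 genes, DESeq2 called 3975 in Kir2.1 against RFP, 5992 in Kv1.5 against RFP and 3452 in Kv1.5 against Kir2.1. Of the 13 protein genes it called 0, 1 (MT-CO3) and 3 (MT-ND2, MT-CO3 and MT-CYB) in the same order. The genes share a genome and each library, and are no replicates of one another.

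Complex IV, cytochrome c oxidase, takes its catalytic core from MT-CO1, MT-CO2 and MT-CO3. MT-CO3 (ENSG00000198938.2, chrM:9207-9990, plus strand) stood at 2667, 2734 and 4359 CPM in the RFP libraries, at 4218, 3352 and 3589 CPM in Kir2.1 and at 2193 and 2013 CPM in the Kv1.5-labelled libraries. Both of the last lay below all other libraries. MT-CO3 was lower in Kv1.5 against Kir2.1 (log2 fold change -0.82, SE 0.26, edgeR adjusted p = 0.0467), but the call was lost in 9 of 18 alternatives, among them the omission of RFP replicate 2 (-0.82), of any Kir2.1 library (-0.72, -0.89 and -0.85 without replicates 1, 2 and 3) and of either Kv1.5-labelled library (-0.88 without replicate 2 and -0.77 without replicate 3). Against RFP its log2 fold change was 0.19 in Kir2.1 (edgeR adjusted p = 0.581) and -0.63 in Kv1.5 (95% interval -1.19 to -0.07, edgeR adjusted p = 0.0766).

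MT-CO2, which holds the copper site that takes electrons from cytochrome c, stood at 1829, 2324 and 3590 CPM in the RFP libraries. It was at 4596, 3903 and 3854 CPM in Kir2.1, all above the RFP libraries, and at 3533 and 2782 CPM in the Kv1.5-labelled libraries. The log2 fold change in Kir2.1 against RFP was 0.67 (SE 0.25, 95% interval 0.13 to 1.21) and did not pass (edgeR adjusted p = 0.0748), but it did without RFP replicate 3 (0.98, edgeR adjusted p = 0.0123), and it was 0.47 without RFP replicate 1. MT-CO1, the subunit with the site of oxygen reduction, ran from 3210 to 4345 CPM in RFP, 3729 to 4682 in Kir2.1 and 3641 to 4168 in Kv1.5. Its log2 fold changes were 0.20, 0.08 and -0.12 in the 3 comparisons, none called. MT-CO1 overlapped between all groups.

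Complex I, which takes electrons from NADH, holds 7 of the 13 products, all in its membrane arm. In Kir2.1 against RFP 6 of the 7 genes had log2 fold changes above 0, from -0.09 (MT-ND3) to 0.52 (MT-ND5, edgeR adjusted p = 0.112). In Kv1.5 against RFP 6 of 7 were below 0, from -0.90 (MT-ND6, edgeR adjusted p = 0.207) to 0.05 (MT-ND4). In Kv1.5 against Kir2.1 all 7 were below 0, from -1.15 (MT-ND6, edgeR adjusted p = 0.16) to -0.26 (MT-ND4L), and the lowest adjusted p was 0.0651 (MT-ND2, -0.77, SE 0.27). MT-ND2 stood at 1419 and 1418 CPM in the Kv1.5-labelled libraries, at 3013, 2185 and 2067 CPM in Kir2.1 and at 2269, 1425 and 2323 CPM in RFP. Both Kv1.5-labelled libraries lay below all others. MT-ND1 ran from 600 to 836 CPM in RFP, 757 to 1357 in Kir2.1 and 694 to 742 in Kv1.5, and MT-ND4 from 2498 to 4341, 3659 to 5610 and 3380 to 3901. MT-ND5 ran from 779 to 1123, 1109 to 1541 and 712 to 1022 CPM in the same order. MT-ND4L, which overlaps MT-ND4 by 7 bases, ran from 267 to 418, 317 to 411 and 294 to 328 CPM, and MT-ND3 from 581 to 1182, 597 to 835 and 496 to 587 CPM. RFP overlapped both channel lines in each of these 5 genes.

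MT-ND6 is the protein gene of the minus strand and an mRNA known to lack a stable poly(A) tail. Its replicates spread widely, at 70.9, 35.6 and 19.8 CPM in RFP, 74.4, 47.0 and 28.6 CPM in Kir2.1, and 25.3 and 19.8 CPM in the Kv1.5-labelled libraries. In RFP and Kir2.1 the level fell from replicate 1 to replicate 3, and Kv1.5 lacks replicate 1 here. The part of that absence in the differences with Kv1.5 was not tested. The 95% interval of MT-ND6 in Kv1.5 against RFP, -2.05 to 0.25, is wider than that of MT-CO3 (-1.19 to -0.07). That difference was -1.25 without RFP replicate 3, where it passed the test (edgeR adjusted p = 0.0486), and -0.30 without RFP replicate 1. Per 1000 counts of the 12 protein genes of the plus strand, MT-ND6 gave 3.52, 2.11 and 0.757 counts in RFP, 2.43, 1.89 and 1.23 in Kir2.1 and 1.26 and 1.10 in Kv1.5, with overlap between all groups.

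Complex III, which passes electrons from ubiquinol to cytochrome c, has 1 mitochondrial gene, MT-CYB, cytochrome b. It stood at 1306, 775 and 1099 CPM in RFP, at 1941, 1277 and 1109 CPM in Kir2.1 and at 817 and 808 CPM in Kv1.5. The Kv1.5-labelled libraries lay below all Kir2.1 libraries but inside the RFP range. Its log2 fold changes were 0.44 (edgeR adjusted p = 0.227), -0.38 (0.318) and -0.83 (0.0656) in the same order of comparisons.

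Complex V, the ATP synthase, has 2 mitochondrial genes whose transcript is shared. MT-ATP8 and MT-ATP6 overlap by 46 bases, shown in capitals with 20 bases on either side (chrM:8507-8592, plus strand), so that a 50-base read spanning the overlap lies partly in both.
MT-ATP8 and MT-ATP6: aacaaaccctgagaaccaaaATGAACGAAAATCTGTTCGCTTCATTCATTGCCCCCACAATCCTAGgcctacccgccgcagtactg
MT-ATP6 stood at 1798, 1425 and 2321 CPM in RFP, at 2278, 1864 and 1909 CPM in Kir2.1 and at 1300 and 1325 CPM in the Kv1.5-labelled libraries, which were the lowest 2 of all. Its log2 fold changes were 0.13, -0.49 (edgeR adjusted p = 0.13) and -0.62 (edgeR adjusted p = 0.0947). MT-ATP8 had 0.08, -0.42 (edgeR adjusted p = 0.143) and -0.50 (edgeR adjusted p = 0.118). As a share of protein gene counts, complex V held 10.5%, 9.96% and 10.3% in RFP, 8.51%, 8.86% and 9.71% in Kir2.1 and 7.61% and 8.79% in Kv1.5. Neither channel group overlapped RFP (two-sided exact permutation p = 0.1 and 0.2, the smallest possible, adjusted p = 0.55 in both). Complex I held 39.5%, 39.4% and 39.5% of protein gene counts on average in RFP, Kir2.1 and Kv1.5, and complex IV 45.1%, 46.2% and 48.0%, each with overlap between groups.

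**Figure D4:**
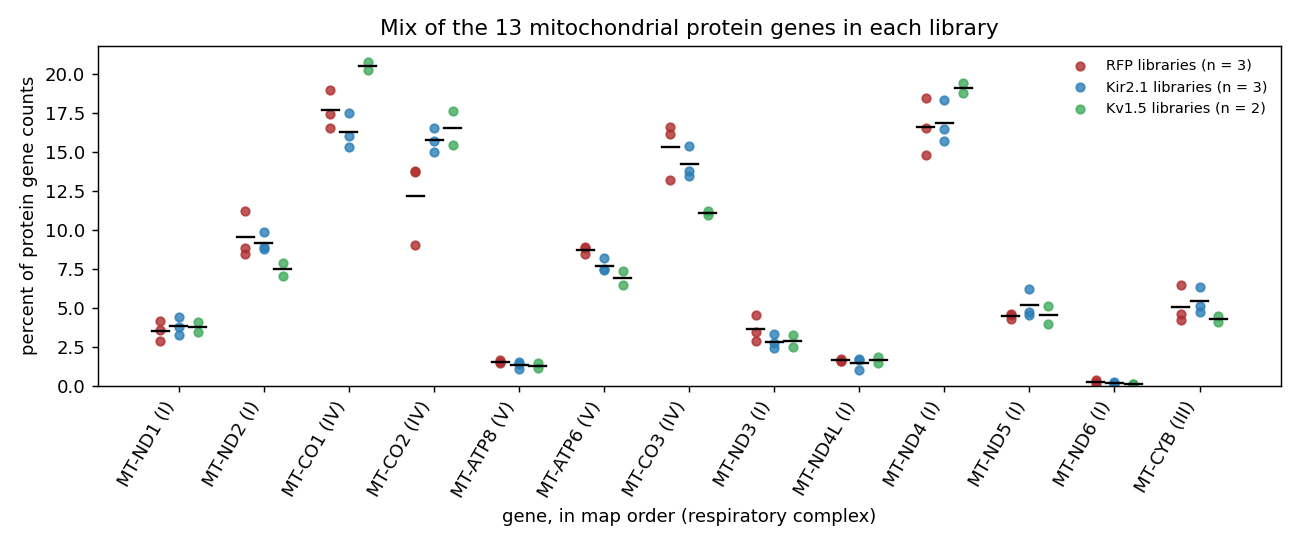
Share of protein gene counts on each of the 13 genes in map order, one point per library and a black line at each group mean (RFP n = 3, Kir2.1 n = 3, Kv1.5 n = 2). MT-CO3 lies at 10.9% and 11.2% in Kv1.5 against 13.2% to 16.6% in RFP, and MT-ND6 is at most 0.351% in any library.

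Compared per length, the order of the genes differed between the groups. In RFP the highest mean was that of MT-CO3 (4149 CPM per kilobase, SD 1222, n = 3), followed by MT-CO2 (3773) and MT-ATP6 (2714), with MT-RNR2 the ninth. MT-CO3 exceeded MT-CO2 in 3 of 3 RFP libraries. From MT-ATP6 down to MT-ND2 (MT-ATP6, MT-ND4, MT-CO1, MT-ND3, MT-ND2), each pair of neighbours kept its order in only 2 of 3. Those were not the same libraries for each pair, and no RFP library kept the whole order. In Kir2.1 the highest was MT-CO2 (6020, SD 607, n = 3), above MT-CO3 (4744) in 3 of 3 libraries, and MT-RNR2 was the fifth at 2837. In Kv1.5 MT-RNR2 had the highest mean (5769, SD 1146, n = 2), but it exceeded MT-CO2 (4616) in only 1 of 2 libraries. MT-ND6 came last in every group, at 80.2 CPM per kilobase in RFP and 95.2 in Kir2.1, and MT-RNR1 stood just above it in RFP and Kir2.1. In the Kv1.5-labelled libraries, MT-RNR1 (908) stood above the means of MT-ND1, MT-CYB and MT-ND5, but above MT-ND1 and above MT-CYB in only 1 of 2 libraries each. Length was taken as the whole gene, and reads shared by overlapping or copied sequence were not corrected for.

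The sequences of the protein genes differ at the 3′ end in what the tail must supply. Of the 13 genes, 7 end on a whole codon, which is AGA in MT-CO1, AGG in MT-ND6 and TAA or TAG in the others. Another 5 end in a single T of the last codon, and MT-ND1 ends in TA. MT-CO3 and MT-ND4 are of the kind that end in T and MT-CO2 of the kind with a whole codon, as the last 30 bases show, with the encoded bases of the stop codon in capitals (chrM:9961-9990, chrM:12108-12137 and chrM:8240-8269, plus strand).
MT-CO3 3 prime end: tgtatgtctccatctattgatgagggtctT
MT-ND4 3 prime end: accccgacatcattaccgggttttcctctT
MT-CO2 3 prime end: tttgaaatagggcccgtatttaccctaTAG
In Kv1.5 against RFP, MT-CO3 and MT-ND4 had log2 fold changes of -0.63 and 0.05. The other genes that end in T, MT-ND2, MT-ND3 and MT-CYB, had -0.50, -0.53 and -0.38. Genes that end on a whole codon ran from -0.90 (MT-ND6) to 0.29 (MT-CO2). The part of the kind of end in these values was not tested. The rRNA genes hold runs of adenine inside their sequence, with the longest, of 7 bases, in MT-RNR2 (chrM:2427-2493, plus strand, run in capitals). MT-RNR1 has a longest run of 6 bases. Runs of 7 also occur in MT-ND2, MT-CO1 and MT-ND4, and MT-ND5 has one of 8.
longest A run of MT-RNR2: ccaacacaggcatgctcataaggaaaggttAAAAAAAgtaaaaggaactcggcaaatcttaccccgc

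The tRNA genes gave few counts. Together the 22 genes had 159 to 495 counts per library, or 4.57 to 14.8 CPM. Per 10000 protein gene counts they gave 1.74 to 5.85 counts in RFP, 3.04 to 4.83 in Kir2.1 and 4.30 to 4.76 in Kv1.5, so the groups overlapped. The genes with the most counts over all libraries were MT-TL1 (878), MT-TI (472), MT-TT (339) and MT-TP (239). Of the 13 tRNA genes that did not pass the filter, 5 (MT-TN, MT-TK, MT-TG, MT-TR and MT-TL2) had 0 counts in all 8 libraries, which allows up to 3 counts each, or 0.0716 to 0.0969 CPM depending on the library. This limit covers counting error only.

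MT-TT, the threonine tRNA (ENSG00000210195.2, chrM:15888-15953, plus strand), was the tRNA gene that changed. It had 15, 10 and 15 counts in the RFP libraries (0.358, 0.262 and 0.431 CPM), 50, 46 and 51 counts in the Kir2.1 libraries (1.62, 1.24 and 1.42 CPM) and 98 and 54 counts in the Kv1.5-labelled libraries (2.51 and 1.42 CPM). All channel libraries lay above all RFP libraries, and the Kir2.1 and Kv1.5 values overlapped. MT-TT rose 4.05-fold in Kir2.1 against RFP (log2 fold change 2.02, SE 0.38, edgeR adjusted p = 0.00287) and 5.58-fold in Kv1.5 against RFP (2.48, SE 0.40, edgeR adjusted p = 0.000715). The difference between the channel lines was 0.47 (95% interval -0.36 to 1.29, edgeR adjusted p = 0.424). Its upstream neighbour MT-CYB, whose last 30 bases are printed above beside it, was not called by edgeR in any comparison, though DESeq2 called it lower in Kv1.5 against Kir2.1 (-0.80, adjusted p = 0.037). Per 10000 MT-CYB counts, MT-TT gave 2.74, 3.39 and 3.93 counts in RFP, 8.32, 9.73 and 12.8 in Kir2.1 and 30.8 and 17.6 in Kv1.5, with no overlap between the 3 groups.

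The other 8 tRNA genes tested were not called. MT-TL1, the leucine tRNA that follows MT-RNR2 without a gap, had log2 fold changes of 0.31 in Kir2.1 and 0.12 in Kv1.5 against RFP (edgeR adjusted p = 0.632 and 0.871). MT-TV, the valine tRNA that follows MT-RNR1, had 0.67 and 0.13 (edgeR adjusted p = 0.451 and 0.898). Per 10000 MT-RNR2 counts, MT-TL1 gave 19.8, 9.28 and 6.00 counts in RFP, 10.5, 5.56 and 6.47 in Kir2.1, and 3.35 and 3.13 in Kv1.5, so that the Kv1.5-labelled libraries lay below all others. MT-TF, upstream of MT-RNR1, had -0.50 and -0.14. MT-TI and MT-TP had 0.18 and 0.36 in Kir2.1 and -0.23 and -0.55 in Kv1.5 against RFP. MT-TM, MT-TA and MT-TD rested on 62, 43 and 71 counts over all libraries, with standard errors of 0.57 to 1.46. Small nuclear, nucleolar and other short noncoding RNAs made from nuclear genes were summed over 5121 genes. The sum was 30.7 to 41.7 CPM in RFP, 27.5 to 31.2 CPM in Kir2.1, and 36.9 and 46.0 CPM in Kv1.5. This sum was chosen after values had been seen, and its part in the MT-TT and rRNA results was not tested.

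Nuclear copies of mitochondrial sequence can take or lend reads, and were counted as a check. Of 404 such genes by symbol, 53 had a count and 10 were tested, of which 0 were called in any comparison by edgeR. Over all tested genes the shares called were 20.5% (Kir2.1) and 33.7% (Kv1.5) against RFP, and 16.8% between the channel lines. Some of the 10 rested on few counts, such as MTCO3P12 with 8 to 21 per library. The copies gave 1.24 to 1.87 counts per 100 counts of the 37 genes in each library. The highest were MTCO1P12 (mean 202 CPM), MTATP6P1 (139 CPM) and MTND4P12 (39.4 CPM). In Kv1.5 against Kir2.1, MTND2P28 and MTATP6P1 had log2 fold changes of -0.62 and -0.61 (edgeR adjusted p = 0.0835 and 0.0803). MT-ND2 and MT-ATP6 had -0.77 and -0.62 there. MTCO1P12 and MTND4P12 had -0.17 and -0.25, beside -0.12 and -0.29 for MT-CO1 and MT-ND4. The part of shared reads in these values was not tested. Of all 50-base windows of MT-CO1, 49.5% are found letter for letter in another GENCODE 29 transcript, nearly all in MTCO1P12. The share was 46.7% for MT-ATP6, 43.6% for MT-ND2, 30.6% for MT-CO3, 14.0% for MT-RNR2, and 0 for MT-RNR1 and MT-TT, so levels of the first genes carry that uncertainty. The 13 MTRNR2L genes, which resemble MT-RNR2, held 11 to 19 counts in RFP, 19 to 29 in Kir2.1 and 54 to 59 in Kv1.5 against 77592 or more of MT-RNR2 in each library.

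Nuclear genes that make or use mitochondrial RNA were read from lists, with each comparison made against RFP unless stated. Of all genes tested, 20.5% were called in Kir2.1 against RFP and 33.7% in Kv1.5 against RFP, and the share of each list is given to be read against these. Of 8 genes of mitochondrial DNA transcription, 0 rose and 2 fell in Kir2.1 against RFP: TFAM, which packs mitochondrial DNA and starts its transcription (log2 fold change -0.73, edgeR adjusted p = 0.0274), and TFB2M, the initiation factor that melts the promoter (-0.70, edgeR adjusted p = 0.0322). Omitting RFP replicate 2 (-0.77) or 3 (-0.64), or Kir2.1 replicate 1 (-0.63) or 2 (-0.73), ended the TFAM call. Omitting RFP replicate 1 (-0.62) or 2 (-0.68), or Kir2.1 replicate 1 (-0.67) or 2 (-0.63), ended that of TFB2M. In Kv1.5 against RFP 1 of the 8 rose, MTERF3, a repressor of that transcription (0.75, edgeR adjusted p = 0.0282). Its call ended without any one RFP library (0.72, 0.76 and 0.77 without replicates 1, 2 and 3) or without Kv1.5 replicate 3 (0.24). POLRMT, the RNA polymerase, was called in neither. The share of the list called was 25% in Kir2.1 and 12.5% in Kv1.5, and its median log2 fold change was -0.10 and 0.19.

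Of 23 genes of mitochondrial RNA processing, stability and decay, 0 were called in Kir2.1 against RFP, and 3 rose and 2 fell in Kv1.5 against RFP (21.7% called). MTPAP, the mitochondrial poly(A) polymerase, rose (0.76, edgeR adjusted p = 0.00823), from 27.9 ± 3.18 CPM (SD, n = 3) in RFP to 47.3 ± 0.00788 CPM (SD, n = 2). PNPT1, a subunit of the RNA-degrading complex, rose as well (1.01, edgeR adjusted p = 0.0077) but not without Kv1.5 replicate 3 (0.44). GRSF1, an RNA-granule protein, fell (-0.69, edgeR adjusted p = 0.0108), and so did FASTKD3 (-0.69, edgeR adjusted p = 0.0221), a call not kept when RFP replicate 2 (-0.71) or Kv1.5 replicate 3 (-0.67) was left out. Of 14 tested genes of rRNA modification and ribosome assembly, 2 rose in Kir2.1 (14.3%) and 3 rose and 1 fell in Kv1.5 (28.6%). RBFA, a factor that matures the small subunit and its 12S rRNA, rose in both (1.10 and 1.47, edgeR adjusted p = 0.00237 and 0.000399), at 7.87 ± 0.821, 16.9 ± 1.77 and 21.8 ± 2.58 CPM (SD, n = 3, 3 and 2). GTPBP10, an assembly factor of the large subunit, rose in Kv1.5 (1.14, edgeR adjusted p = 0.00238).

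Of 12 genes of mitochondrial tRNA maturation, 1 fell in Kir2.1 (8.33% called), and 2 rose and 5 fell in Kv1.5 (58.3%). PUS1 was among those that fell in Kv1.5 (-0.80, edgeR adjusted p = 0.0485), a call lost in 9 of 18 alternatives. YRDC, which starts the threonylcarbamoyl modification of tRNAs that read codons starting with A, threonine tRNA included, rose in Kv1.5 (2.11, edgeR adjusted p = 0.000218), while OSGEPL1, which completes it in mitochondria, fell (-1.08, edgeR adjusted p = 0.00653). TRIT1, which modifies a base beside the anticodon, rose (1.00, edgeR adjusted p = 0.00337). Of 14 genes of mitochondrial DNA replication and nucleotide supply, 1 rose and 1 fell in Kir2.1 (14.3%), and 2 rose and 2 fell in Kv1.5 (28.6%). POLG, the catalytic subunit of the DNA polymerase, fell in both (-1.19 and -1.53, edgeR adjusted p = 0.00104 and 0.000342), from 218 ± 49.9 CPM (SD, n = 3) in RFP to 95.7 ± 2.84 (SD, n = 3) and 75.7 ± 2.83 (SD, n = 2). TK2, the mitochondrial thymidine kinase, rose in both (1.22 and 1.08, edgeR adjusted p = 0.00206 and 0.00455). Of 8 regulators of mitochondrial biogenesis, 1 rose and 1 fell in Kir2.1 (25%), and 2 rose in Kv1.5 (25%). The latter were MYC, a transcription factor of growth (2.03, edgeR adjusted p = 0.00018), and ESRRA, a nuclear receptor that acts on respiratory genes (1.12, edgeR adjusted p = 0.00315). Of 10 mitochondrial chaperones and proteases, 1 rose in Kir2.1 (10%) and 3 rose in Kv1.5 (30%). AFG3L2, a subunit of an inner membrane protease that matures a ribosomal protein, rose in Kv1.5 (1.21, edgeR adjusted p = 0.000341). It rose in Kir2.1 too (0.65, edgeR adjusted p = 0.0135), a call that ended without RFP replicate 2 (0.65, edgeR adjusted p = 0.0613). Of 13 mitochondrial translation factors, 1 rose and 1 fell in each comparison against RFP (15.4% in both).

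Nuclear genes also encode partners of the products. Of 37 nuclear complex I subunit genes, 3 rose and 0 fell in Kir2.1 (8.11% called), and 3 rose and 4 fell in Kv1.5 against RFP (18.9%). Of 9 of complex III, 0 were called in Kir2.1 and 2 fell in Kv1.5 (22.2%), UQCRC2 and UQCRFS1. The UQCRC2 call was lost without Kv1.5 replicate 3 (-0.58), and that of UQCRFS1 in 10 of 18 alternatives. Of 11 of complex IV, 0 were called in Kir2.1 and 1 (9.09%), COX5A, fell in Kv1.5 (-0.92, edgeR adjusted p = 0.0109, not called without Kv1.5 replicate 3 at -0.85). Of 18 of complex V, 3 rose and 1 fell in each (22.2% in both), and ATP5PO, a subunit of the stalk, rose in both (0.89 and 1.41, edgeR adjusted p = 0.00824 and 0.000534). Of 77 tested mitochondrial ribosomal protein genes, 2 rose and 5 fell in Kir2.1, and 11 rose and 6 fell in Kv1.5. MRPS11, of the small subunit, fell in both (-1.19 and -1.54, edgeR adjusted p = 0.00108 and 0.000355), and MRPL2, of the large subunit, rose in Kv1.5 (1.12, edgeR adjusted p = 0.00716). The share of genes called was 9.09% and 22.1% for the ribosomal proteins. In Kv1.5 against Kir2.1, 0 of the 37, 9, 11 and 18 nuclear subunit genes of complexes I, III, IV and V were called by edgeR. Of the other lists, the share called there ran from 2.60% (ribosomal proteins) to 30% (chaperones and proteases, with HSPA9 higher at 1.10). It was 25% for mitochondrial DNA transcription, where TFB2M (1.10) and MTERF3 (0.96) were higher. Both of these calls ended without Kv1.5 replicate 3 (0.77 and 0.45), and that of MTERF3 also without Kir2.1 replicate 1 or 2. Of all genes tested, 16.8% were called in that comparison.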

How the data were processed

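The deposited table gives whole-number counts for each gene in 8 libraries. The submitters' processing notes name FastQC, Trimmomatic, STAR, edgeR and GRCh38. Counter, strand setting and annotation were not given in the sources used here. For each channel against RFP, the authors' deposited tables give log2 fold changes, log2 CPM, p-values adjusted over the listed genes alone, and a score that was not used. Here, genes were tested in edgeR 4.0.16 (R 4.3.3) on the counts: filterByExpr by group left 16687 genes, libraries were scaled by TMM, and 1 quasi-likelihood fit of all 8 libraries gave the 3 comparisons, with Benjamini-Hochberg adjustment over all genes tested and a threshold of 0.05. CPM are TMM-scaled and shares use raw counts. The fit was tested on simulated data. Lengths, positions and sequences came from GENCODE 29. Alternatives covered scaling, filter, tool (DESeq2 1.42.0, limma 3.58.1 voom), replicate block, samples in the fit and each library left out. All MT- protein and rRNA genes and tested tRNA genes were to be named, and from each nuclear list at most 2 called genes in each direction, not all of which are described. The members and lists were chosen with earlier results of these data known.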

Additional observations from a re-analysis of the deposited data

How the results depend on the processing

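Across 18 alternatives, the calls of MT-RNR2 and MT-TT against RFP in both lines and of MT-RNR1 in Kv1.5 against RFP were kept in each. The number of mitochondrial genes called in Kir2.1 against RFP was 2, rising to 4 with no low-count filter, and ran from 2 to 3 with a library left out. In Kv1.5 against RFP it ran from 3 to 4. In Kv1.5 against Kir2.1 it was 2, and 1 at an adjusted p under 0.01, with RLE factors or with upper quartile factors, 4 with library totals alone, 5 with no filter and 5 with DESeq2, and it ran from 0 to 3 with a library left out. By DESeq2, 3452 of all genes were called in Kv1.5 against Kir2.1, against 2801 by edgeR. With library totals alone 2713 of 16687 were called, and with no filter 3511 of 32594. In these DESeq2, library total and no-filter settings the share of mitochondrial genes called was not below that of all genes. Over all genes, calls in Kir2.1 against RFP fell from 3418 to 1975 without Kir2.1 replicate 2 and to 2143 without RFP replicate 2. In Kv1.5 against Kir2.1 they fell from 2801 to 1859, 1384 and 1493 without Kir2.1 replicates 1, 2 and 3 and to 1484 without Kv1.5 replicate 3. The share of all counts counted over protein genes only differed by -0.30 percentage points in Kv1.5 minus RFP and by -0.82 in Kv1.5 minus Kir2.1, against 0.38 and -0.37 over all 37 genes. Some protein genes against RFP lay near 0 and changed sign with a library left out: in Kir2.1 against RFP, MT-ATP8 ran from -0.057 to 0.22, MT-ATP6 from -0.034 to 0.32, MT-ND3 from -0.27 to 0.33, MT-ND4L from -0.048 to 0.27 and MT-ND6 from -0.15 to 0.85. In Kv1.5 against RFP, MT-ND1 ran from -0.15 to 0.090, MT-CO1 from -0.016 to 0.21, MT-ND4L from -0.31 to 0.0015, MT-ND4 from -0.15 to 0.22 and MT-ND5 from -0.39 to 0.13, and MT-TT in Kv1.5 against Kir2.1 from -0.002 to 0.82. None of these was called. MT-ND4 in Kv1.5 against RFP was -0.02 with library totals alone. The cause of these shifts was not tested. The labels do not say that a replicate number marks a shared batch. Correlations of same-numbered deviations between RFP and Kir2.1 were 0.181, -0.094 and 0.157. Those of differently numbered libraries of the same lines ran from -0.218 to 0.085. Pairing by number was therefore not decided. With replicate number as a block, 3, 3 and 2 mitochondrial genes were called in the 3 comparisons, MT-RNR1 joining in Kir2.1 against RFP and replacing MT-CO3 in Kv1.5 against Kir2.1, and MT-ND1 in Kv1.5 against RFP was 0.15. Low counts limit the tRNA genes, 13 of which were not tested, and 2 libraries limit each comparison with Kv1.5.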

Other observations

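Across the 8 libraries, the nuclear genes whose log2 CPM followed the summed protein genes most closely were STMP1 (Pearson r = 0.97), LUC7L2 (0.97) and GTF2IRD2B (0.92). For the summed rRNA genes they were CLIC6, TSGA10 and AVPI1 (r = 0.99 each). These are descriptions over 8 libraries that share groups and depth. In RFP and in Kir2.1, replicate 1 had the highest MT-ND6 level, the highest tRNA level (11.8 and 14.8 CPM) and the most MT-RNR1 per 100 MT-RNR2 counts (16.7 and 13.1) of its group.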
